A study of Homo sapiens with 12 samples.

Results

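The nuclear-encoded subunits of the respiratory chain and the ATP synthase were examined in established lines of triple-negative breast cancer, MDA-MB-231 and Hs-578T. The members were chosen by symbol from the protein-coding genes of the expression table: names that begin with NDUF and A, B, C, S or V (complex I), SDHA to SDHD (complex II), UQCR (complex III), COX with a number from 4 to 8 (complex IV) and ATP5 (complex V, the ATP synthase). This gave 88 of 32152 listed genes, of which 17665 were listed as protein coding. By complex, the members were 40, 4, 9, 15 and 20 from I to V. The symbol decided the complex, so NDUFA4, whose protein is now placed in complex IV, was counted with complex I. The symbols are the older ones that the table uses (ATP5A1 for the ATP synthase alpha subunit, ATP5B for the beta subunit).

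RNA was sequenced from 12 libraries, 2 in each of 6 groups. In each line the groups were parental controls, cells labelled ERK5-ko, in which MAPK7, the gene of the kinase ERK5, was targeted by CRISPR/Cas9, and cells labelled MEK5DD, which carry MEK5, the upstream activator of ERK5, as a mutant that is always active. The ERK5-ko cells were grown from sorted single cells. In MDA-MB-231 a single clone outlived the sort, so clonal differences and the label ERK5-ko cannot be told apart, and which Hs-578T clone was sequenced is not given in the sources used here. The replicates of a group are consecutive passages: 29 and 30 for MDA-MB-231 parental, 7 and 8 for ERK5-ko and 10 and 11 for MEK5DD, and 83 and 84, 8 and 9, and 8 and 9 for the same groups of Hs-578T. Passage and label cannot be told apart in any comparison with the parental cells.

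The respiratory chain passes electrons from NADH through complex I, or from succinate through complex II, to ubiquinone, and on through complex III and cytochrome c to complex IV, where oxygen is reduced. Complexes I, III and IV pump protons across the inner mitochondrial membrane, and the ATP synthase uses the gradient to make ATP. Complex I and complexes III to V are mosaics of subunits encoded in the nucleus and in mitochondrial DNA, and several complex IV subunits exist as pairs of isoforms, one made in most tissues and one in a few, such as COX7A1 in heart and skeletal muscle and COX7B2 in testis.

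The values are RPKM, reads on a gene per kilobase of its gene model and scaled to the library's total reads, which can be compared between genes. Whole reads were recovered from them, and the library totals lay between 20248162 and 27791195 reads. In the ERK5-ko libraries the RNA of MAPK7 was no lower than in controls: it averaged 13.8 RPKM in parental and 17.0 in ERK5-ko MDA-MB-231 cells (log2 fold change 0.29, limma adjusted p = 0.071), and 15.0 and 18.0 in Hs-578T (0.26, adjusted p = 0.062). In a fit that blocked on replicate number, MAPK7 was higher in both lines at an adjusted p under 0.05. The table counts reads over the whole gene and does not show whether the protein was lost, so directions below refer to the labels. By Western blot, the paper reports that ERK5 protein was far lower in the ERK5-ko cells of both lines than in parental cells. MAP2K5, the gene of MEK5, was higher on the log2 scale by 3.77 in the MEK5DD libraries of MDA-MB-231 and by 0.50 in those of Hs-578T (adjusted p = 3.3e-10 and 0.0049). VIM, which encodes the mesenchymal filament vimentin, averaged at least 1617 RPKM in each group, and ESR1 and PGR, the steroid receptor genes that define the subtype by their absence, at most 0.325. ERBB2 was the other receptor gene listed. Of these 3 receptor genes 1 reached 0.5 RPKM in at least 2 libraries, as did all 3 epithelial markers listed, CDH1, EPCAM and KRT18.

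Members were among the abundant RNAs of both lines. A gene was tested where it reached 0.5 RPKM in at least 2 libraries, which 85 of the 88 members and 13737 protein-coding genes did. The median tested member had 81.2 RPKM in MDA-MB-231 parental cells and 97.7 in Hs-578T parental cells, against 15.6 and 13.5 for all genes tested, and 78 and 79 of the 85 lay above that median. In the top 10% of all genes tested were 31 and 44 members. ATP5B, the catalytic subunit of the ATP synthase, was the highest member in both lines, with 651 and 654 RPKM in the MDA-MB-231 and 770 and 670 in the Hs-578T parental libraries. COX8A, a small complex IV subunit, followed with 444 and 452 RPKM in the former line and 385 and 283 in the latter. COX8A in Hs-578T was not separated from COX6B1, at 338 and 272 RPKM, or COX4I1, at 319 and 240. Within complex I the parental means ran from 0.0892 RPKM for NDUFA4L2 to 223 for NDUFS5 in MDA-MB-231 and from 3.33 to 255 for the same genes in Hs-578T.

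The 3 members not tested were UQCRHL, COX8C and ATP5L2, at 0.227 RPKM or less in all 12 libraries. COX8C, a testis isoform of the COX8 subunit, had at most 2 reads in any library. A few members share sequence or position with another gene, and their values are uncertain: the readthrough entries NDUFC2-KCTD14 and ATP5J2-PTCD1 overlap NDUFC2 and ATP5J2, NDUFA7 is listed 2 times with overlapping gene models (ENSG00000167774 and ENSG00000267855), and ATP5EP2, ATP5L2 and UQCRHL resemble processed copies. ATP5S and ATP5SL fit the naming rule, but their proteins are not structural subunits of the synthase. A further 37 listed genes matched the names without being protein coding, 34 of them processed pseudogenes, and reads assigned to these 34 came to between 0.0144% and 0.0359% of the reads on members.

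The RefSeq promoters of COX7B2, the testis form of subunit VIIb of complex IV, and of its widely expressed partner COX7B are shown because COX7B2 rose in MDA-MB-231 MEK5DD cells while no change of COX7B passed the test. Those of COX4I1 and COX5B, both subunits of complex IV made in most tissues, are shown because these genes moved in opposite directions in MDA-MB-231 MEK5DD cells and in the same direction in Hs-578T ERK5-ko cells. Each is the 250 bases before the RefSeq transcription start on GRCh38.p14, 5′ to 3′ on the strand of the gene. Starts in RefSeq can differ from the gene ends of the expression table, as for COX4I1. Capitals mark matches, on either strand, to 4 motifs: GCGCATGC for NRF1, CCGGAAG for ETS factors such as GABP, the CCAAT box, and GGGCGG for SP1.
COX7B2 (chr4:46909246-46909495, minus strand): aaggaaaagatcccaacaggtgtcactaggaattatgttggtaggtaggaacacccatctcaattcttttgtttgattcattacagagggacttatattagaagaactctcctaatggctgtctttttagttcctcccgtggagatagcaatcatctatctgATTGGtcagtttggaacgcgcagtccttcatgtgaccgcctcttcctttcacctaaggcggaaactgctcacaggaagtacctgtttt
COX7B (chrX:77899218-77899467, plus strand): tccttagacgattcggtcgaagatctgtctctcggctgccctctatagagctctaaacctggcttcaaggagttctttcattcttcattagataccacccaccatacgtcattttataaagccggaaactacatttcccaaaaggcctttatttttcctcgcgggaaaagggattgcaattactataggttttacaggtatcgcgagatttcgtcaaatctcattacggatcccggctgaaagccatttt
COX4I1 (chr16:85799445-85799694, plus strand): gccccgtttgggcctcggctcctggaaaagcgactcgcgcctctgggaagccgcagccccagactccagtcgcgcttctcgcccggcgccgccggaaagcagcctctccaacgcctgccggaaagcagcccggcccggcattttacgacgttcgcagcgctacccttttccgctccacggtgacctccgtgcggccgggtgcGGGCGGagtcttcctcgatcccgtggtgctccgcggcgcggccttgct
COX5B (chr2:97645812-97646061, plus strand): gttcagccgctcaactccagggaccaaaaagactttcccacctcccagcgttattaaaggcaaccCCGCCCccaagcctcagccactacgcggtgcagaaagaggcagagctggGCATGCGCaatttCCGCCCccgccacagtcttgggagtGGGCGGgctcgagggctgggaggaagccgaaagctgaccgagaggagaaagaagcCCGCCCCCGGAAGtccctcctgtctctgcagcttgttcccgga

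The windows of COX7B2 and COX7B have the same GC content, 43.2%, and differ in a CCAAT box on the reverse strand of COX7B2. The COX4I1 window is richer in GC (70.4%) and holds 1 SP1 match, and that of COX5B holds an NRF1 match, an ETS match and SP1 matches, 1 of which adjoins the ETS match. Promoters were found for 67 of the 87 distinct member symbols. The NRF1 letters occurred in 12 of these 67 (17.9%), in 4.66% of the promoters of 10828 tested genes and in 2.81% of all 27305 promoters. The ETS letters occurred in 16 (23.9%), against 15.5% and 8.82%, the CCAAT box in 22 (32.8%), against 35.1% and 33.0%, and the SP1 letters in 37 (55.2%), against 66.9% and 42.3%. The members with the NRF1 letters came from complexes I, II, IV and V: NDUFA6, NDUFB4, NDUFS6, NDUFS7, SDHB, SDHD, COX5B, COX6A1, ATP5C1, ATP5G2, ATP5I and ATP5J. A match describes the letters in these windows and is not a test of binding.

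The members are short, and short genes separated the replicates of Hs-578T. The median gene model of a tested member was 763 bases against 1572 for all genes tested, and 76 of 85 members (89.4%) were below that figure. In Hs-578T parental cells the second library gave lower values than the first for 78 of 85 members, with a median difference of -0.29 on the log2 scale, while 47.5% of all genes were lower. In Hs-578T MEK5DD cells it was lower for 80 of 85 members, with a median of -0.44, against 40.2% of all genes. In MDA-MB-231 ERK5-ko cells the second library was lower for 16 of 85, with a median of 0.12, and the other 3 groups had medians between -0.02 and 0.00. Genes outside the list that were no longer than the median member, 661 genes, moved the same way, by -0.21 in Hs-578T parental and -0.27 in Hs-578T MEK5DD. Each comparison with these 4 libraries is therefore followed by how many calls remained when single libraries were left out, and the part of gene length in each result was not tested beyond a fit that removed smooth trends of length and GC content.

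**Figure D1:**
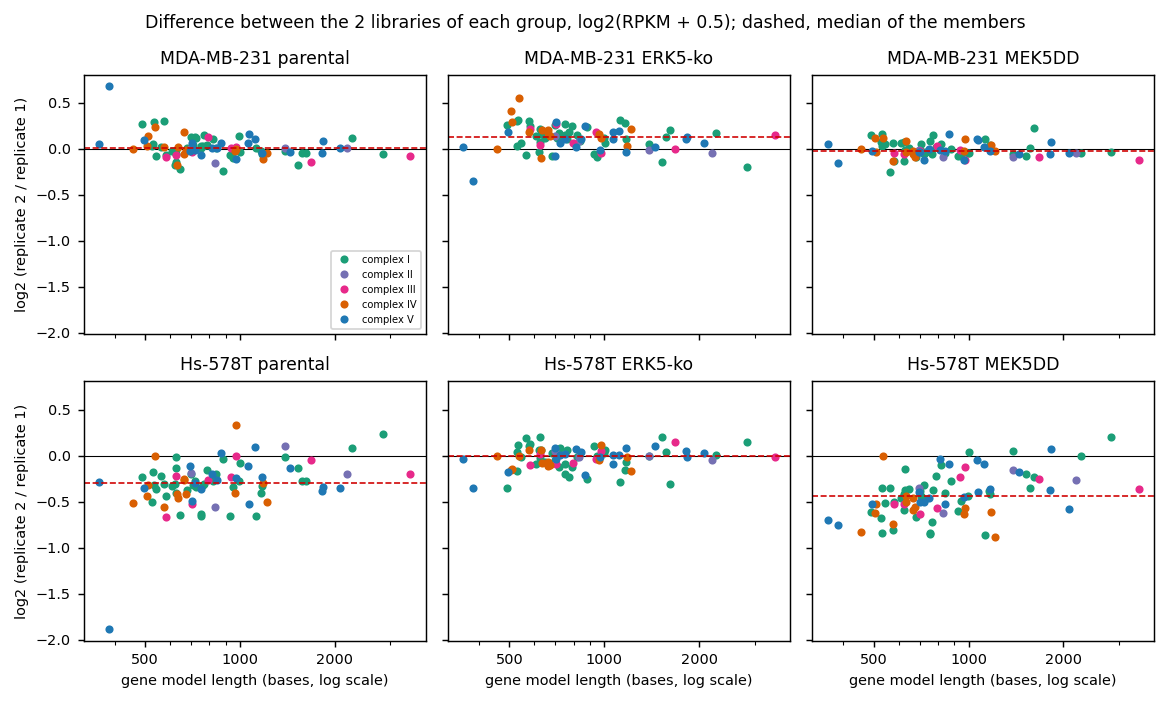
Difference between the 2 libraries of each group for the 85 tested members, log2 of replicate 2 over replicate 1 on the scale of RPKM + 0.5 (vertical axis), against gene model length in bases (log axis). Points are members coloured by complex and the dashed line is their median, which lies at -0.29 in Hs-578T parental and -0.44 in Hs-578T MEK5DD and between -0.02 and 0.12 in the other 4 groups.

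The first comparison set ERK5-ko against parental cells in Hs-578T. The clearest change was in complex IV. COX7A1, the heart and muscle form of the small subunit VIIa, had no read in either ERK5-ko library. COX4I1, the largest nuclear-encoded subunit of complex IV, and COX5B, which binds zinc in the same complex, fell as well. By adjusted p under 0.05, called passed from here on, 16 of 85 members were lower, or 18.8%, and 1 was higher. Of all genes tested, 19.7% passed as lower and 19.7% as higher, so the share of members that were lower was near that of all genes. The median member changed by -0.14 on the log2 scale, where all genes had a median of 0.01 and the 661 other short genes one of -0.12.

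COX7A1 (ENSG00000161281, chromosome 19, 36150922 to 36152869 of GRCh38, minus strand) was at 8.52 and 5.81 RPKM in the parental libraries and at 0 in both ERK5-ko libraries. In Hs-578T MEK5DD it reached 29.5 and 16.4 RPKM, and in all 6 MDA-MB-231 libraries it had no read. The 3 Hs-578T groups did not overlap. In bulk libraries fewer cells with the RNA and less RNA per cell cannot be told apart. Taking 3 reads per library as the limit that a count of 0 allows, which covers counting error only, COX7A1 was at least 27.5-fold lower in ERK5-ko than in parental cells (limma adjusted p = 3.4e-07, passed also without any 1 of the 4 libraries). Its gene model spans 457 bases, among the shortest of the members. Of the muscle marker list, 8 of 9 genes were analysed and none reached the level for the test: ACTA1, the skeletal muscle actin, averaged at most 0.408 RPKM and DES, desmin, at most 0.334 in a group, and CKM, muscle creatine kinase, had 0 in 5 of 6 group means.

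COX4I1 (chromosome 16, 85798633 to 85807044, plus strand) was at 319 and 240 RPKM in the parental libraries and at 150 and 146 in ERK5-ko. Both ERK5-ko values lay below both parental ones, which differed from each other along with other short genes. The ratio of the means was 0.529 and the log2 fold change -0.90 (SE 0.18, adjusted p = 0.0022), and it stayed between -1.11 and -0.70 when any 1 of the 4 libraries was left out, passing each time. EMC8, a subunit of the membrane protein insertase EMC, starts on the opposite strand within the COX4I1 locus, and the 2 gene models overlap by 976 bases. It was lower by 0.61 (adjusted p = 0.00096). How reads in the overlap were assigned is not given in the sources used here.

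COX5B was at 195 and 164 RPKM in parental and 124 and 114 in ERK5-ko libraries (log2 fold change -0.58, SE 0.16, adjusted p = 0.014). The groups did not overlap, but the call was lost without the first parental library (adjusted p = 0.092), without the second ERK5-ko library (0.10) and when the Hs-578T libraries were fitted alone (0.10). COX6B2, the testis form of subunit VIb, passed as lower on very few reads: 10 and 14 in parental and 2 and 3 in ERK5-ko libraries, a ratio of 5.56 with an exact 95% counting interval from 2.08 to 18.7. The other 10 tested members of complex IV did not pass, and their log2 fold changes lay between -0.33 for COX6B1 and 0.01, although COX6B1 passed as lower with the replicate block (adjusted p = 0.025). COX7A2, the partner isoform of COX7A1, was at 120 and 80.9 RPKM in parental and 92.7 and 96.8 in ERK5-ko, and COX7A2L, which helps to join complexes III and IV, at 86.6 and 70.5 against 72.9 and 71.9.

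In complex I, 8 of 40 members were lower and 1 was higher. The largest fall was that of NDUFB5, an accessory subunit of the membrane arm, from 94.1 and 74.3 RPKM to 50.2 in both ERK5-ko libraries (log2 fold change -0.73, SE 0.15, adjusted p = 0.0025). NDUFA4L2, a relative of NDUFA4 known to be induced by hypoxia, went from 3.37 and 3.28 RPKM to 2.33 and 1.87 (-0.56, adjusted p = 0.0085). The core subunits NDUFS1 and NDUFV1 did not pass: NDUFV1 was at 179 and 148 RPKM in parental and 165 and 163 in ERK5-ko, and NDUFS1 at 30.4 and 36.0 against 35.9 and 39.9. Also lower were the accessory subunits NDUFA5, NDUFA10, NDUFB1, NDUFB10 and NDUFS5, by 0.36 to 0.53 on the log2 scale.

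NDUFC1 (chromosome 4, 139266880 to 139302551, minus strand), a small subunit of the membrane arm, was the only member that rose in this comparison. It went from 34.7 and 31.1 RPKM to 50.7 and 46.6, with no overlap (log2 fold change 0.56, SE 0.11, adjusted p = 0.0021), and passed without any 1 of the 4 libraries. NAA15, the auxiliary subunit of an acetyltransferase complex, lies in part over NDUFC1 on the opposite strand and was higher by 0.73 (adjusted p = 0.0018). The next highest log2 fold changes of the comparison, which did not pass, were those of NDUFB6, an accessory subunit (0.35, adjusted p = 0.20), and ATP5EP2 (0.26, adjusted p = 0.69).

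In the rest of the chain the changes were few. Of complex III, UQCRC2, a core protein, fell from 147 and 146 RPKM to 111 and 115 (log2 fold change -0.37, SE 0.08, adjusted p = 0.0039), and UQCRC1 and UQCRFS1, the Rieske iron-sulfur protein, did not pass. No member of complex II passed. SDHA, its flavoprotein, was at 98.4 and 105 RPKM in parental and 87.4 and 87.1 in ERK5-ko (-0.22, adjusted p = 0.056, and 0.041 with the replicate block). Of complex V, the membrane and stalk subunits ATP5H and ATP5J2 and the readthrough entry ATP5J2-PTCD1 fell by 0.50 to 0.55, while ATP5A1 and ATP5B did not pass.

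Of the 17 members that passed, 8 passed also without any 1 of the 4 libraries: COX7A1, COX4I1, COX6B2, NDUFB5, NDUFA10, UQCRC2 and ATP5J2-PTCD1 as lower and NDUFC1 as higher. NDUFB10, NDUFB1, NDUFS5, COX5B, ATP5H and ATP5J2 were among the 7 calls lost without the first parental library, and none was lost without the second. The count of lower members was 9, beside 3 higher, without the first and 24 without the second parental library, 8 without the second ERK5-ko library, and 28 when replicate number was a block, where 23.1% of all genes passed as lower. By the thresholds of the study, which add a fold above 1.5 or below 0.5, here of RPKM + 0.5, COX7A1 was the 1 member called lower. None was called higher, where 3.27% of all genes were called lower and 9.35% higher. COX6B2 passed and fell from a mean of 0.571 to 0.103 RPKM. It missed the threshold with a log2 fold change of -0.82 on the scale of RPKM + 0.5.

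In MDA-MB-231, no member passed between ERK5-ko and parental cells in the limma fit, in either direction. Of all genes tested, 6.91% passed as higher and 10.4% as lower. At an unadjusted p under 0.05 there were 4 members, and limma voom on the recovered reads also gave 0, with 8 at an unadjusted p under 0.05. When the 6 MDA-MB-231 libraries were fitted alone 14 members passed as higher and 2 as lower, where 11.6% and 18.0% of all genes did, so the count of 0 holds for the shared fit and not for that of the line alone. Without the second ERK5-ko library 1 member passed as lower. The median member differed by 0.12 on the log2 scale against -0.04 for all genes, and the second ERK5-ko library, which was higher than the first for most members, takes part in that value. By the thresholds of the study no member was called in either direction (all genes, 2.8% higher and 1.07% lower).

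The members at the ends of the range were all within 0.46 of 0. NDUFB5 was at 50.1 and 46.6 RPKM in parental and 37.7 and 35.4 in ERK5-ko libraries, and NDUFS3, a core subunit of the complex I arm that holds the iron-sulfur clusters, at 127 and 131 against 95.5 and 104. Neither overlapped, with log2 fold changes of -0.40 and -0.37 and adjusted p of 0.090 and 0.092. At the upper end NDUFA13, an accessory subunit also known as GRIM-19, was at 105 and 106 RPKM against 133 and 160, and UQCR11, the smallest complex III subunit, at 96.3 and 93.6 against 118 and 143. With the replicate block NDUFC1, UQCR11 and NDUFA13 passed as higher and NDUFB5 and NDUFS3 as lower, 3 and 2 members where 10.1% and 14.9% of all genes passed. With trends of length and GC content removed, 6 members passed as higher, where 12.2% of all genes did, and the same 2 passed as lower. With both the block and this correction 22 passed as higher (all genes, 15.2%) and 2 as lower (all genes, 14.4%). COX7B2 and ATP5EP2, both at low levels, were also at the ends of the range, with -0.23 and 0.41 (adjusted p = 0.36 and 0.62).

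The effect of the label ERK5-ko differed between the lines for 16 members, tested as a difference of differences. All 16 had a higher log2 fold change in MDA-MB-231 than in Hs-578T. None passed the other way in limma or limma voom, and none of the members with a lower value in MDA-MB-231 had an unadjusted p under 0.05. Of all genes, 18.3% passed with a higher and 21.5% with a lower value in MDA-MB-231, so the members' share in the first direction, 18.8%, was near the background while the second was 0. The median difference was 0.28 against -0.05 for all genes. With trends of length and GC content removed the count was 30 (all genes, 23.4%), with 2 the other way, and with the replicate block 27 (all genes, 21.6%). It was 25 without the second Hs-578T parental library, 13 without the first MDA-MB-231 ERK5-ko library, and 7 or 9 without any 1 of the other 6 libraries of the 4 groups.

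COX7A1 had the largest difference, 3.92, since it had no read in MDA-MB-231. COX5B differed by 0.83 (SE 0.23, adjusted p = 0.014), with log2 fold changes of 0.24 in MDA-MB-231, which did not pass, against -0.58 in Hs-578T. COX4I1 differed by 0.69 (SE 0.25, adjusted p = 0.048), with -0.21 against -0.90. In MDA-MB-231 its values were 99.2 and 97.6 RPKM in parental and 80.4 and 89.7 in ERK5-ko libraries, which did not overlap and did not pass. NDUFA13 had the second largest difference, 0.92, and did not pass (adjusted p = 0.055, and 0.0025 with the replicate block). At the other end NDUFS3, NDUFB6 and NDUFC1 differed by -0.35, -0.32 and -0.28 (adjusted p = 0.17, 0.39 and 0.17). NDUFA10, UQCRC2 and ATP5J2-PTCD1 passed without any 1 of the 8 libraries of these 4 groups. So did COX7A1 and COX6B2, but none of their MDA-MB-231 libraries held more than 1 read. The differences of COX7A1 and COX6B2 therefore restate their values in Hs-578T.

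**Figure D2:**
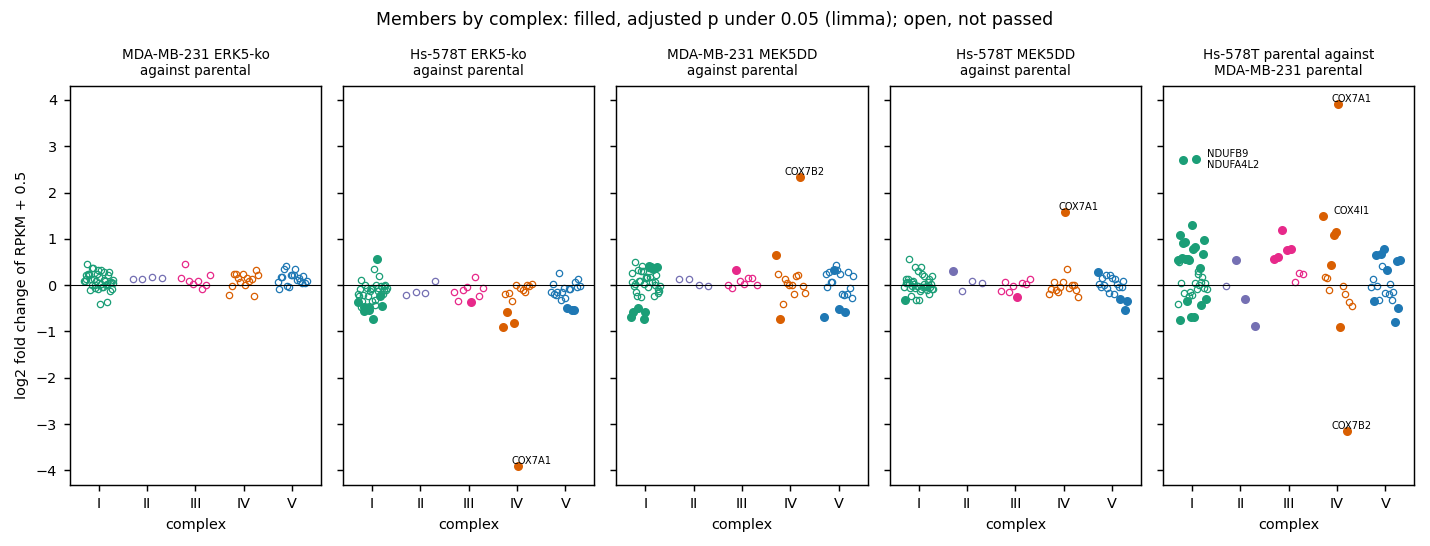
Log2 fold change of RPKM + 0.5 (vertical axis) of the 85 tested members by complex (horizontal axis) in 5 comparisons, filled where the limma adjusted p was under 0.05 and open where not. COX7A1 lies at -3.92 in Hs-578T ERK5-ko and 1.58 in Hs-578T MEK5DD, COX7B2 at 2.34 in MDA-MB-231 MEK5DD, and no point is filled in MDA-MB-231 ERK5-ko.

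Among the MEK5DD libraries of MDA-MB-231, the largest change was again in a tissue isoform of complex IV, here COX7B2, the testis form of subunit VIIb, which rose 5.55-fold. COX4I1 rose and COX5B fell.

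COX7B2 (chromosome 4, 46734827 to 46909235) was at 3.62 and 4.36 RPKM in MDA-MB-231 parental, 2.64 and 4.10 in ERK5-ko and 21.2 and 23.0 in MEK5DD libraries. The MEK5DD values stood apart from the other 4, and no Hs-578T library had a read. The log2 fold change against parental was 2.34 (SE 0.16, adjusted p = 4.7e-07). Its share of the summed RPKM of COX7B and COX7B2 was 5.55% and 6.82% in parental, 4.13% and 5.45% in ERK5-ko, and 22.9% and 24.7% in MEK5DD libraries. COX7B itself was at 61.6 and 59.5 RPKM in parental and 71.3 and 70.0 in MEK5DD libraries and did not pass.

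COX4I1 and COX5B went in opposite directions. COX4I1 rose from 99.2 and 97.6 RPKM to 157 and 155 (log2 fold change 0.66, SE 0.18, adjusted p = 0.012), although the adjusted p was between 0.054 and 0.062 when any 1 of the 4 libraries was left out. EMC8, which overlaps it, was higher by 0.60 (adjusted p = 0.00074). COX5B fell from 163 and 157 RPKM to 97.4 and 95.9 (-0.72, SE 0.16, adjusted p = 0.0036), and passed without any 1 library. No other complex IV member passed. COX6A1, the widely expressed form of subunit VIa, was at 266 and 270 RPKM against 197 and 208 (adjusted p = 0.079), and passed as lower with the replicate block.

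In complex V, ATP5A1, the alpha subunit, fell from 294 and 286 RPKM to 183 and 176 (log2 fold change -0.69, SE 0.09, adjusted p = 0.00013), also without any 1 library. HAUS1, a microtubule-binding augmin subunit that starts 2 bases from ATP5A1 on the opposite strand, was lower by 0.66 (adjusted p = 0.0035). ATP5B, the partner of the alpha subunit in the catalytic head, did not pass, at 651 and 654 RPKM against 775 and 768 (0.24, adjusted p = 0.067), and was higher with the replicate block. ATP5J2 and ATP5G3, one of the genes for the c ring, fell by 0.58 and 0.52, and ATP5F1, a subunit of the peripheral stalk, rose by 0.32. The call of ATP5F1 was lost whichever of the 4 libraries was left out, and those of ATP5J2 and ATP5G3 without some of them.

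In complex I, 4 of 40 members rose and 5 fell. The core subunit NDUFS7 and the membrane-arm subunits NDUFB8 and NDUFC2 rose by 0.38 to 0.41. Each of these calls was lost whichever of the 4 libraries was left out. NDUFB2 fell from 107 and 92.0 RPKM to 59.6 and 59.9 (-0.73), NDUFA1 from 95.9 and 98.3 to 61.1 and 58.6 (-0.69), and NDUFA12, NDUFB3 and NDUFA5 by 0.49 to 0.59. The 5 that fell are accessory subunits. NDUFA3, another of these, was at 50.3 and 60.6 RPKM in parental and 74.3 and 82.4 in MEK5DD libraries, with no overlap (0.50, adjusted p = 0.057, and 0.0013 with the replicate block). Of complex III, UQCRB, which helps to form the ubiquinone pocket, rose by 0.33 (adjusted p = 0.022). Its call was lost without the second parental library and without either MEK5DD library. No member of complex II passed.

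In MDA-MB-231 MEK5DD cells 8 members (9.41%) passed as higher than in parental cells and 9 (10.6%) as lower, where 17.5% of all genes were higher and 23.8% lower, with medians of 0.06 for members and -0.01 for all genes. With the replicate block 20 members passed as higher (all genes, 21.2%), and with trends of length and GC content removed 21 did (all genes, 26.9%). Leaving out 1 of the 4 libraries gave 2 or 3 higher and 5 to 8 lower members, with 5 lower without the second MEK5DD library. COX7B2, COX5B, ATP5A1 and NDUFA12 were among the 5 members that passed each time. By the thresholds of the study COX7B2 and COX4I1 were called higher and no member lower, where 7.64% and 6.31% of all genes were called.

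In Hs-578T, MEK5DD cells differed from parental cells in few members, and COX7A1 rose. Against 8.52 and 5.81 RPKM in parental cells it had 29.5 and 16.4, against the same parental libraries as in the ERK5-ko comparison, a ratio of the means of 3.20 and a log2 fold change of 1.58 (SE 0.22, adjusted p = 0.00065), which lay between 1.17 and 1.99 and passed when any 1 of the 4 libraries was left out. COX7A2 was at 161 and 96.2 RPKM against 120 and 80.9, which overlapped. COX7A1 made up 6.65% and 6.70% of the summed RPKM of COX7A1 and COX7A2 in parental and 15.5% and 14.6% in MEK5DD libraries, so within each library the share differed less between replicates than the values did.

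Besides COX7A1, the members that passed as higher were ATP5A1, at 296 and 269 RPKM against 368 and 325 (log2 fold change 0.29, adjusted p = 0.043), and SDHA, at 98.4 and 105 against 134 and 119 (0.31, adjusted p = 0.022). Neither pair of groups overlapped, but the call of ATP5A1 was lost without the second parental or first MEK5DD library, and that of SDHA without the first library of either group. ATP5S, ATP5SL, NDUFA10, ATP5J2-PTCD1 and UQCRC2 were lower, by 0.26 to 0.53, and of these NDUFA10 passed without any 1 library. NDUFA4 had the second largest log2 fold change, 0.56, with 264 and 167 RPKM in parental and 414 and 231 in MEK5DD libraries, which overlapped (adjusted p = 0.12). With the replicate block, which compares libraries of the same number, it passed (adjusted p = 0.015), and NDUFB4 and NDUFB10 passed as lower (adjusted p = 0.026 and 0.015, against 0.10 and 0.088 without it). NDUFB4 was at 170 and 148 RPKM in parental and 145 and 111 in MEK5DD libraries, and NDUFB6 at 42.2 and 26.6 against 54.5 and 35.8 (0.40, adjusted p = 0.19).

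Counts in this comparison moved with the libraries kept. There were 3 higher members (3.53%) and 5 lower (5.88%), where 6.44% of all genes were higher and 17.0% lower. Without the first MEK5DD library they were 1 and 12, without the second 16 and 3, without the first parental library 7 and 1, and without the second 2 and 4. The median member changed by -0.02, and by -0.24 and 0.22 without the first and second MEK5DD library. With trends of length and GC content removed, 8 members passed as higher (all genes, 12.8%). By the thresholds of the study COX7A1 was the 1 member called higher and none was called lower (all genes, 2.9% and 1.49%).

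**Figure D3:**
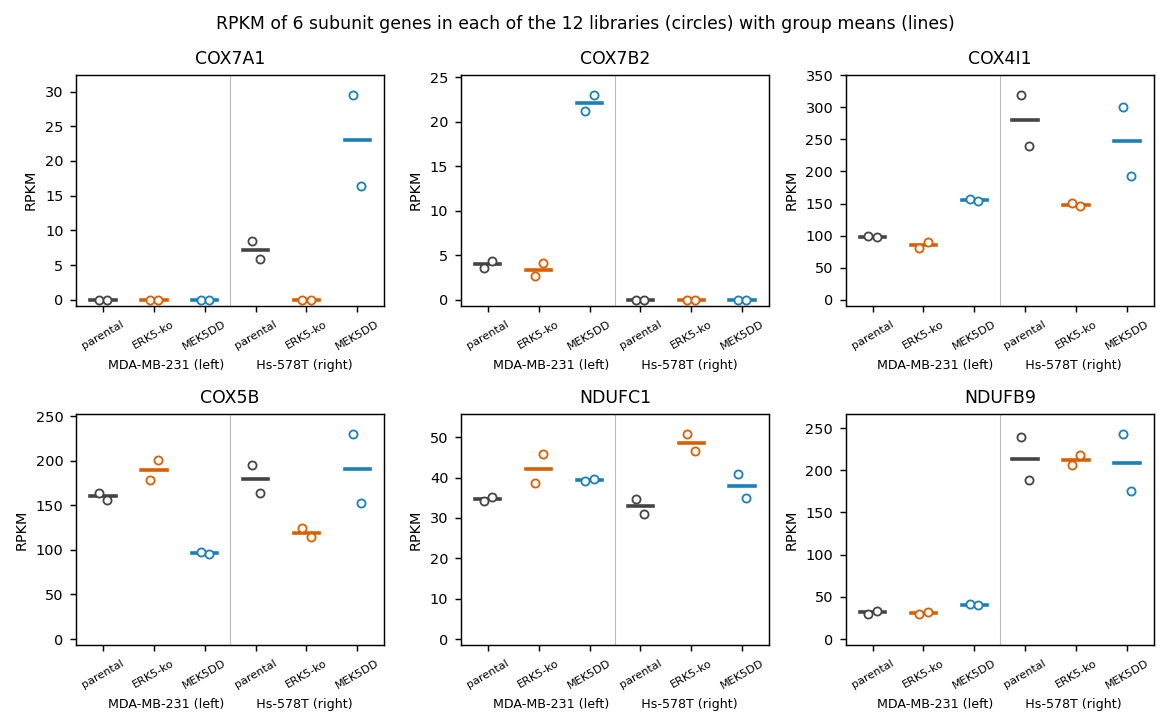
RPKM (vertical axes, from 0) of 6 members in each of the 12 libraries (circles) with group means (lines), MDA-MB-231 on the left and Hs-578T on the right of each panel. COX7A1 has values above 0 in Hs-578T parental and MEK5DD libraries and COX7B2 in the 6 MDA-MB-231 libraries, and COX4I1 and COX5B are lower in both Hs-578T ERK5-ko libraries than in both parental ones.

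The 2 parental lines differed in more members than any other pair of groups compared. In Hs-578T 34 of 85 members were higher and 13 (15.3%) lower than in MDA-MB-231, where 31.3% of all genes were higher and 46.0% lower. The median member differed by 0.16 and the median of all genes by -0.19. With median-ratio scaling, which moves the median of all genes to 0.02, the median member was at 0.40, and 43 members were higher and 6 lower. Leaving out 1 of the 4 parental libraries gave 27 to 39 higher and 7 to 19 lower members, with 7 lower without the second Hs-578T library and 8 without the second MDA-MB-231 library, and 34 of the 47 members passed each time. With the replicate block COX8A, COX7C, NDUFA1 and ATP5J2 passed as lower as well, and NDUFC2, NDUFA11, ATP5G1 and NDUFC2-KCTD14 as higher.

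The 2 lines used different tissue isoforms of complex IV. COX7A1 was detected only in Hs-578T, at 8.52 and 5.81 RPKM, and was at least 28.6-fold lower in MDA-MB-231, and COX7B2 was detected only in MDA-MB-231, at 3.62 and 4.36 RPKM, and was at least 15.5-fold lower in Hs-578T. COX6B2 had no read in the MDA-MB-231 parental libraries and was at least 4.85-fold higher in Hs-578T, where it reached 0.449 and 0.694 RPKM. The widely expressed forms were much higher in both: COX6B1 had 213 and 235 RPKM in MDA-MB-231 against 338 and 272 in Hs-578T, and COX7A2 had 183 and 185 against 120 and 80.9 (log2 fold change -0.90, adjusted p = 0.0023). COX4I2 and COX6A2, the partners of COX4I1 and COX6A1, were not among the protein-coding genes listed, so they could not be compared. NDUFA4L2 had 3 and 1 reads in MDA-MB-231 against 68 and 60 in Hs-578T, a ratio of 38.6 with an exact 95% counting interval from 14.7 to 144.

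**Figure D4:**
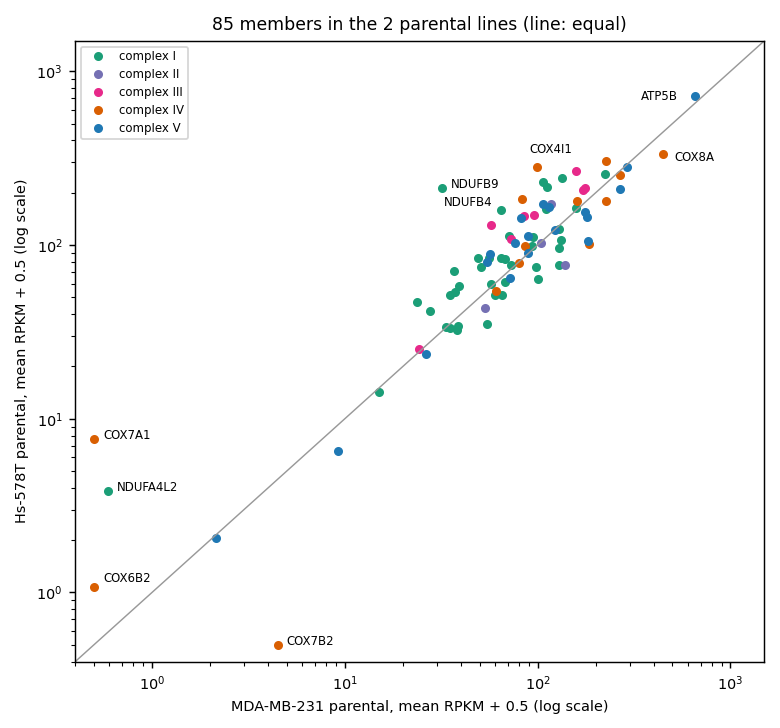
Mean RPKM + 0.5 of the 85 tested members in MDA-MB-231 parental (horizontal) and Hs-578T parental cells (vertical), both log axes, with the line of equal values. COX7A1, NDUFA4L2 and COX6B2 lie at the left edge, COX7B2 at the lower edge, and NDUFB9 and COX4I1 above the line by 2.73 and 1.49 on the log2 scale.

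Among abundant members, NDUFB9, an accessory complex I subunit with an LYR motif, differed most, at 30.2 and 32.8 RPKM in MDA-MB-231 against 239 and 188 in Hs-578T (log2 fold change 2.73, SE 0.15, adjusted p = 9.5e-09). The 6 libraries of each line kept to these levels, with 29.2 to 41.4 RPKM in MDA-MB-231 against 175 to 243 in Hs-578T. COX4I1 differed by 1.49 and NDUFB4, a membrane-arm subunit, by 1.30. All 8 tested members of complex III had a log2 fold change above 0, from 0.07 to 1.18, and 5 passed as higher: UQCRB, UQCRC1, UQCRC2, UQCR10 and UQCR11. On the lower side, SDHD, a membrane anchor of complex II, was at 146 and 131 RPKM in MDA-MB-231 and 90.5 and 61.4 in Hs-578T (-0.88, adjusted p = 0.0014), and SDHB, the iron-sulfur subunit, was higher by 0.55. SDHC, the other anchor, was lower by 0.31, a call that was kept in 1 of 4 fits without 1 parental library (adjusted p up to 0.13) and lost without the second Hs-578T library. UQCR11 was kept in 2 of 4 and lost without the first Hs-578T library (adjusted p up to 0.15), while NDUFB4, SDHD and SDHB passed in all 4.

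The 3 tested members on chromosome 8, NDUFB9, COX6C and UQCRB, were all higher in Hs-578T, by 2.73, 1.14 and 1.18. Of the 480 genes tested on chromosome 8, 66.3% passed as higher and 17.7% as lower, with a median of 0.70. TATDN1, a nuclease gene that starts beside NDUFB9 on the opposite strand, was higher by 2.02 (adjusted p = 5.8e-08). On chromosome 19, 12 of 14 tested members passed as higher and 0 as lower, where 40.1% and 32.9% of its genes did. All 3 tested members on chromosome 3 and all 3 on chromosome 16 passed as higher, where 42.1% and 41.8% of genes did. On chromosome 11, 0 of 8 passed as higher and 3 as lower, where 24.2% and 54.5% of genes did. The part of the chromosome in these values was not tested.

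Several members share a promoter region with a neighbour. Starts on opposite strands within 1000 bases of each other joined 26 members and tested protein-coding neighbours in 27 pairs. Between the parental lines, 13 of these pairs had a member that passed. In 10 of them, with both overlapping NDUFA7 entries and their shared neighbour RPS28 counted as separate pairs, the neighbour passed in the same direction. Most genes passed in this comparison (31.3% of all as higher and 46.0% as lower). In Hs-578T ERK5-ko the neighbour passed in the same direction in 1 of 3 pairs (COX4I1 and EMC8), in MDA-MB-231 MEK5DD in 3 of 6 (COX4I1 and EMC8, ATP5A1 and HAUS1, ATP5F1 and WDR77) and in Hs-578T MEK5DD in 1 of 3. In none of the comparisons did both pass in opposite directions. In MDA-MB-231 ERK5-ko cells EMC8 was lower by 0.72 (adjusted p = 0.00095) while COX4I1 did not pass.

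The 13 subunits encoded in mitochondrial DNA did not pass in any comparison of ERK5-ko or MEK5DD with parental cells, by limma or by limma voom. At an unadjusted p under 0.05 there were 7 in Hs-578T MEK5DD and 0 in the other 3. Their medians were -0.21 in MDA-MB-231 ERK5-ko, 0.53 in Hs-578T ERK5-ko, 0.28 in MDA-MB-231 MEK5DD and 0.96 in Hs-578T MEK5DD, and their replicates were far apart: MT-ATP6, a subunit of the ATP synthase, ranged from 276 to 628 RPKM in Hs-578T parental and from 577.5 to 1505 in MEK5DD libraries. With the replicate block 7 of them passed as higher in Hs-578T MEK5DD and 1 in Hs-578T ERK5-ko. Between the lines 4 were lower in Hs-578T, MT-CO3, MT-ND1, MT-ND2 and MT-ND3, by 1.07 to 1.41, where 46.0% of all genes were lower. With the replicate block 7 were lower.

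Assembly factors moved in both directions in Hs-578T ERK5-ko cells. Of 24 tested for complex IV, 4 were higher and 3 lower, where 19.7% of all genes passed in each direction: COX17, a copper chaperone, was higher by 0.69 (adjusted p = 0.0016), COX10, COX20 and SCO1 by 0.34 to 0.36, and TACO1, COA5 and SURF1 were lower by 0.33 to 0.53. Of 15 for complex I, FOXRED1 and NDUFAF6 were higher, and ACAD9, which doubles as an acyl-CoA dehydrogenase, and TIMMDC1 were lower, by 0.52 and 0.42. SDHAF4, an assembly factor of complex II, fell from a mean of 3.45 to 1.06 RPKM (log2 fold change -1.35, adjusted p = 0.0036). In MDA-MB-231 ERK5-ko, HIGD1A, lower by 0.42, was the 1 member of the complex IV list that passed, and none of the complex I, II and III lists or the ATP synthase list did, with 1 of 15 for complex I, 0 of 4 for complex II, 2 of 6 for complex III and 1 of 5 for the ATP synthase at an unadjusted p under 0.05. By limma voom 1 of the complex III list passed and none of the others, HIGD1A included. The 5 tested of the ATP synthase list were all higher in Hs-578T than in MDA-MB-231 parental cells, by 0.35 to 1.09, where 31.3% of all genes were.

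Of 20 tested regulators of mitochondrial biogenesis, 12 had an ERK5-ko effect that differed between the lines, 3 higher and 9 lower in MDA-MB-231, where 18.3% and 21.5% of all genes did. In MDA-MB-231 ERK5-ko, where 10.4% of all genes were lower and 6.91% higher, 5 were lower and none higher: POLG, the mitochondrial DNA polymerase, by 0.44, PPRC1, a coactivator, by 0.48, TFAM, which packages mitochondrial DNA, by 0.37, CHCHD4, an import factor, by 0.36, and NRF1, a transcription factor of respiratory genes, by 0.35. In Hs-578T ERK5-ko, 5 were higher, POLG, PPRC1, TFAM, MYC and HCFC1, and 3 lower, CHCHD2, ESRRA and PPARGC1A. CHCHD2, a mitochondrial protein that also acts in the nucleus, went from a mean of 661 to 381 RPKM (log2 fold change -0.78, adjusted p = 0.0061). In MDA-MB-231 MEK5DD 8 were higher and 3 lower, PPARGC1A (PGC-1 alpha) by 0.86 (adjusted p = 0.00084) and YY1 by 0.65 among the higher, and in Hs-578T MEK5DD none passed, with 3 at an unadjusted p under 0.05, 1 by limma voom, and 1 in each direction under the replicate block. Of 16 citric acid cycle genes, MDA-MB-231 ERK5-ko cells had 0 higher and 1 lower, with 5 and 4 in Hs-578T ERK5-ko cells, 5 and 3 in MDA-MB-231 MEK5DD cells and 1 and 3 in Hs-578T MEK5DD cells. In this order 6.91%, 19.7%, 17.5% and 6.44% of all genes passed as higher, and 10.4%, 19.7%, 23.8% and 17.0% as lower.

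The 78 tested mitochondrial ribosomal protein genes gave 1, 4, 18 and 0 higher and 3, 7, 4 and 12 lower in the same order, and the 78 cytosolic ones 0, 0, 16 and 2 higher and 0, 10, 2 and 0 lower. The shares of all genes in these comparisons are those given above. The cytosolic ribosomal genes, which are short as the members are, had medians of 0.11, -0.21, 0.32 and 0.13. With the replicate block 28 mitochondrial and 45 cytosolic ones were higher in MDA-MB-231 MEK5DD and 15 and 23 lower in Hs-578T ERK5-ko cells. Of all genes, 21.2% were higher in the former and 23.1% lower in the latter with this block. Between the parental lines 44 of the cytosolic genes were higher and 1 lower in Hs-578T, where 31.3% and 46.0% of all genes were.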

How the data were processed

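RNA-seq libraries were made by the authors with a stranded mRNA kit. The submitters' processing notes name bcl2fastq, Trimmomatic 0.32, TopHat2 2.1.1, R 3.3.1, DESeq2 1.12.4 and GRCh38, and the counting tool and annotation are not given in the sources used here. The authors deposited RPKM values for 12 libraries, from which whole reads were recovered for all 32152 genes (100% of values within 0.001 of a whole read). Replicates were not identical (chi-square per degree of freedom 2.67 to 38.5), but separate cultures are not stated beyond the passage numbers, so p values may measure technical spread. No other column of sample values was left out.

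log2(RPKM + 0.5) was fitted with limma 3.58.1 (R 4.3.3, variance trend) with a mean for each of the 6 groups, leaving 6 residual degrees of freedom among the 12 libraries, on protein-coding genes with at least 0.5 RPKM in 2 libraries. P values were adjusted by Benjamini-Hochberg within each comparison over 13737 genes. Fold changes on this scale understate those of low genes. An exact permutation test of 2 libraries against 2 cannot go below 0.333, so none was used. The script was tested on simulated data.

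The labels do not state that libraries with the same replicate number are paired, and numbers follow passages. Deviations of same-numbered libraries from their group means correlated at 0.107 to 0.541 in all 6 pairs of groups within a line. The value of 0.541 was that of Hs-578T parental and MEK5DD, and the others were at most 0.187. Values with the number as a block are an alternative. They are printed where they move a count over 1.5-fold or change the call of a member described singly. Alternatives changed the pseudocount, filter, scaling, libraries fitted, length and GC correction (natural splines, 13706 genes), thresholds and libraries kept, and used limma voom on the recovered reads. A library left alone in its group was assumed to vary like the others.

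The genes named were drawn from the 3 highest and 3 lowest members of each comparison, those past the study thresholds, isoform partners, core catalytic subunits and members at 3 reads or fewer in a group, and other members that passed, or did so in an alternative, were named after their values were seen. Members and gene lists were chosen with earlier results of these data known. Single results of a few genes are not reported here. Promoters are from RefSeq. Tables and plots were made in Python 3.11.15 with pandas 2.3.3, numpy 2.4.6, matplotlib 3.10.9 and scipy 1.17.1.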

Additional observations from a re-analysis of the deposited data

Results flagged for a closer look

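The ERK5-ko effect, as the log2 fold change against parental cells, differed between the lines for 16 members by the limma test of the difference itself, MDA-MB-231 minus Hs-578T. Of all genes tested, 18.3% passed with a higher value in MDA-MB-231, so the members' share was near that of all genes. Of the 16 members, 5 passed without any 1 library of the compared groups, COX7A1 and COX6B2 among them. The largest difference was that of COX7A1, 3.92, a gene with no read in MDA-MB-231. In complex IV, COX6B2, with at most 1 read in any MDA-MB-231 library, differed by 0.88, COX5B by 0.83 and COX4I1 by 0.69. In complex I, NDUFA7 (ENSG00000167774) differed by 0.85, NDUFS5 by 0.74, NDUFA5 by 0.59, NDUFB10 by 0.57, NDUFB4 by 0.51 and NDUFA10 by 0.45. In complexes II and III, SDHA differed by 0.36, UQCR11 by 0.79 and UQCRC2 by 0.47. In complex V, ATP5H differed by 0.71, ATP5J2 by 0.69 and ATP5J2-PTCD1 by 0.63. All 16 have a higher value in MDA-MB-231, and the Hs-578T parental libraries, whose replicates differed along gene length, enter each of them. The part of that difference in these values was not tested.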

How the results depend on the processing

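Depth did not limit the abundant members, but COX7A1, COX7B2, COX6B2 and NDUFA4L2 rest on few reads, and with 2 libraries a group a single library decides many calls. Named members kept their direction and side of the threshold in 834 recalculations that kept all libraries, lost the call in 51, gained it in 36 and reversed in 0. The replicate block, which treats libraries of the same number as if paired, gained 8 calls and lost 0. Among libraries left out, the direction turned for COX7B2 in MDA-MB-231 ERK5-ko without its first library (0.042, against -0.51 without the second) and for ATP5EP2 in Hs-578T ERK5-ko without the second parental library (-0.68, against 1.21 without the first, of which the last alone was past the threshold).

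Counts of members passed moved by over 1.5 times as follows, higher and lower, and except where fewer libraries or a stricter threshold account for it the cause was not tested. The shares of all genes moved as well. In MDA-MB-231 ERK5-ko, 6.91% of all genes were higher in the shared fit and 11.6% with each line alone. Counts printed without such a share are therefore not results about the members in particular. For MDA-MB-231 ERK5-ko (0 and 0), the fit of each line alone gave 14 and 2, the length and GC correction 6 and 2, the replicate block 3 and 2, and both together 22 and 2. For Hs-578T ERK5-ko (1 and 16), each line alone gave 7 lower, the replicate block 28 lower, the length and GC correction 2 higher, both together 3 higher, and the study thresholds 0 and 1. For MDA-MB-231 MEK5DD (8 and 9), each line alone gave 25 and 15, the study thresholds 2 and 0, and the higher count was 4 with no filter, 15 with quantile normalization, 21 with the length and GC correction, 20 with the replicate block and 27 with both. For Hs-578T MEK5DD (3 and 5), each line alone gave 1 and 0, the study thresholds 1 and 0, the length and GC correction 8 higher, with the block added 12 higher, and the lower count was 2 with median-ratio scaling, 3 with quantile normalization and 1 with limma voom. Between the parental lines (34 and 13), the study thresholds gave 22 and 1, median-ratio scaling 6 lower and limma voom 7 lower, with medians of 0.40 and 0.38. For the difference of the ERK5-ko effect (16 and 0), the length and GC correction gave 30 and 2, the replicate block 27 higher and both 39 and 3.

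Leaving out each of the 12 libraries in turn gave 0 to 3 higher and 0 to 2 lower members in MDA-MB-231 ERK5-ko. In Hs-578T ERK5-ko it gave 1 to 3 and 8 to 27, with the median from -0.32 to -0.0093. In MDA-MB-231 MEK5DD it gave 2 to 21 and 5 to 11, and in Hs-578T MEK5DD 1 to 16 and 1 to 12, with the median from -0.24 to 0.22. Between the parental lines it gave 27 to 39 and 7 to 19, and for the difference 7 to 31 and 0. Leaving out either Hs-578T MEK5DD library, which enters these comparisons through the shared spread, gave 27 lower in Hs-578T ERK5-ko, 21 higher in MDA-MB-231 MEK5DD and 31 for the difference.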
